A study of Mus musculus with 3 samples.

Results

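The miR-23, miR-27 and miR-24 miRNAs come from a pair of paralogous clusters, and their guide strands were followed here through exosomes of mouse bone marrow mesenchymal stem cells (MSCs). The members were the miRNAs that the array names mmu-miR-23a-3p, mmu-miR-23b-3p, mmu-miR-27a-3p, mmu-miR-27b-3p, mmu-miR-24-3p and mmu-miR-24-2-5p (written without the species prefix from here on), which made 6 of the 1881 mouse miRNAs on the array. They were chosen by name. Of these, 3 belong to the a-cluster alone (miR-23a-3p, miR-27a-3p and miR-24-2-5p), 2 to the b-cluster alone (miR-23b-3p and miR-27b-3p), and miR-24-3p is made by both.

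The groups were H+G-Exo, exosomes of MSCs kept in hypoxia with GW4869, H-Exo, exosomes of MSCs kept in hypoxia, and N-Exo, exosomes of MSCs kept in normoxia, each collected over 24 h. GW4869 inhibits neutral sphingomyelinase, an enzyme that vesicle release depends on. All 3 groups share their source, wild-type male C57BL/6 mice of 4 to 6 weeks, cultures at passage 3 to 6, and medium of 10 dishes. The sources used here give neither the oxygen level nor the GW4869 dose. Each group had 1 array, so no comparison below has a biological replicate or a p-value, and the errors given are over the repeated spots of a probe on 1 array. The submitters' design mentions 3 samples per exosome kind, and whether RNA was pooled is not given. The scaled signal is the Agilent one-colour intensity in units of the array's 75th percentile, which was taken over probes detected on all 3 arrays.

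MicroRNAs bind messenger RNAs mainly through their seed, bases 2 to 8, and members with 1 seed are read as having largely overlapping targets. The a-cluster and the b-cluster each line up a miR-23, a miR-27 and a miR-24 hairpin within a short stretch and are transcribed as joint precursors, so each cluster makes 1 copy of each kind. In mouse work the clusters are known for roles in blood vessel growth and in heart cells. The b-cluster lies inside a protein-coding gene and the a-cluster has its own promoter.

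In RefSeq annotation of GRCm38.p6, the a-cluster spans 404 bases of chromosome 8 at chr8:84208518-84208921 on the plus strand, between the genes Nanos3 and Zswim4. The b-cluster spans 792 bases of chromosome 13 at chr13:63300484-63301275 on the plus strand, within the span of Aopep, an aminopeptidase gene. The mature sequences from RefSeq are shown because they decide which targets and which probes the members share, with the seed in capitals. miR-23b-3p had no mature entry in the source used here, so its sequence and seed are left out.
miR-23a-3p: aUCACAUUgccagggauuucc
miR-27a-3p: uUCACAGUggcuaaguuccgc
miR-27b-3p: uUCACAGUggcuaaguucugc
miR-24-3p: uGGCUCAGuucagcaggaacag
miR-24-2-5p: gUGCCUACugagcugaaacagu
RefSeq places these at chr8:84208563-84208583 for miR-23a-3p, chr8:84208727-84208747 for miR-27a-3p, chr13:63300760-63300780 for miR-27b-3p and chr8:84208839-84208860 for miR-24-2-5p. miR-27a-3p and miR-27b-3p share a seed and differ by 1 base over 21, C19U counted from the 5′ end of miR-27a-3p. The miR-23 and miR-27 seeds differ by 1 base as well, U7G counted in miR-23a-3p.

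The same miR-24-3p is cut from a hairpin in each cluster, and the hairpins are shown because the array cannot assign its signal to either of them. Capitals mark miR-24-3p, the remaining letters hold the loop and the opposite arm.
Mir24-1 (chr13:63301208-63301275): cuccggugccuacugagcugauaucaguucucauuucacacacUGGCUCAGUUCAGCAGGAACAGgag
Mir24-2 (chr8:84208815-84208921): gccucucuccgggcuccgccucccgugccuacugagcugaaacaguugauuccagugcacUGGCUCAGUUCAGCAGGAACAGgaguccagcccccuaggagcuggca
The opposite arms differ, and miR-24-2-5p comes only from the chromosome 8 hairpin.

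The array tells the paralogues apart by a single base. Its 17-base probes, read 5′ to 3′ as deposited, pair with bases 5 to 21 of miR-23a-3p, miR-27a-3p and miR-27b-3p, a stretch that takes in the 3′ part of the seed, and capitals mark the base that differs between paralogues.
miR-23a-3p probe: ggAaatccctggcaatg
miR-23b-3p probe: ggTaatccctggcaatg
miR-27a-3p probe: gcGgaacttagccactg
miR-27b-3p probe: gcAgaacttagccactg
Counted from the probe's 5′ end, the miR-23 probes differ by A3T and the miR-27 probes by G3A. The array's own annotation, on build mm9, places the miR-23b-3p probe at chr13:63401842-63401857, an interval 1 base shorter than the probe. The intervals of the other 17-base probes shown here are 1 base shorter as well. How much of a probe's signal came from the paralogue was not tested. Each member had 2 probes of neighbouring lengths (18 and 17 bases for miR-23a-3p and miR-24-3p, 17 and 16 bases for the others), each printed in 15 spots. A probe was called detected where over 50% of its spots were well above background, and a miRNA takes the values of its brightest probe.

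Of the 6 members 5 were detected. All unflagged spots of the brightest probes of miR-23a-3p, miR-23b-3p, miR-27a-3p, miR-27b-3p and miR-24-3p, 13 to 15 spots per array, were well above background on every array. miR-24-2-5p, the passenger strand of the a-cluster's miR-24 hairpin, was not well above background in any spot of its 2 probes. Its 17-base probe had unscaled intensities of 0.153 ± 4.39 in H+G-Exo, 0.0458 ± 3.05 in H-Exo and 7.21 ± 2.76 in N-Exo (SD over 13 to 15 spots). The N-Exo mean lay above the others, all of them below the level at which a fold would have a meaning, so none is given.

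In scaled signal the guide strands were lowest in H+G-Exo, higher in H-Exo and highest in N-Exo. For miR-23a-3p, an a-cluster miRNA known to repress glutaminase in human cells, the scaled signal was 2.67 ± 0.0776 in H+G-Exo, 4.65 ± 0.237 in H-Exo and 9.64 ± 0.345 in N-Exo (SD over spots). For miR-23b-3p, its b-cluster paralogue, it was 0.505 ± 0.029 in H+G-Exo, 1.58 ± 0.0613 in H-Exo and 6.36 ± 0.185 in N-Exo. Of the pair, miR-23b-3p covered the wider fold range. For miR-23a-3p the order of H+G-Exo and H-Exo depends on the scaling, as given below.

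For miR-27a-3p, a miRNA known to repress the fat cell regulator Pparg, the scaled signal was 0.745 ± 0.0355 in H+G-Exo, 2.27 ± 0.131 in H-Exo and 5.17 ± 0.164 in N-Exo. For miR-27b-3p, with the same seed, it was 0.223 ± 0.0255 in H+G-Exo, 0.65 ± 0.0407 in H-Exo and 2.62 ± 0.0802 in N-Exo. Both kept the order of the miR-23 paralogues, with the lowest signal in H+G-Exo. For miR-24-3p, a product of both clusters known in mouse heart cells to repress the cell death factor Bim, it was 5.97 ± 0.307 in H+G-Exo, 6.62 ± 0.448 in H-Exo and 12.8 ± 0.444 in N-Exo. Here the H+G-Exo and H-Exo ranges of 1 SD overlapped, and the N-Exo signal stood above both.

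**Figure D1:**
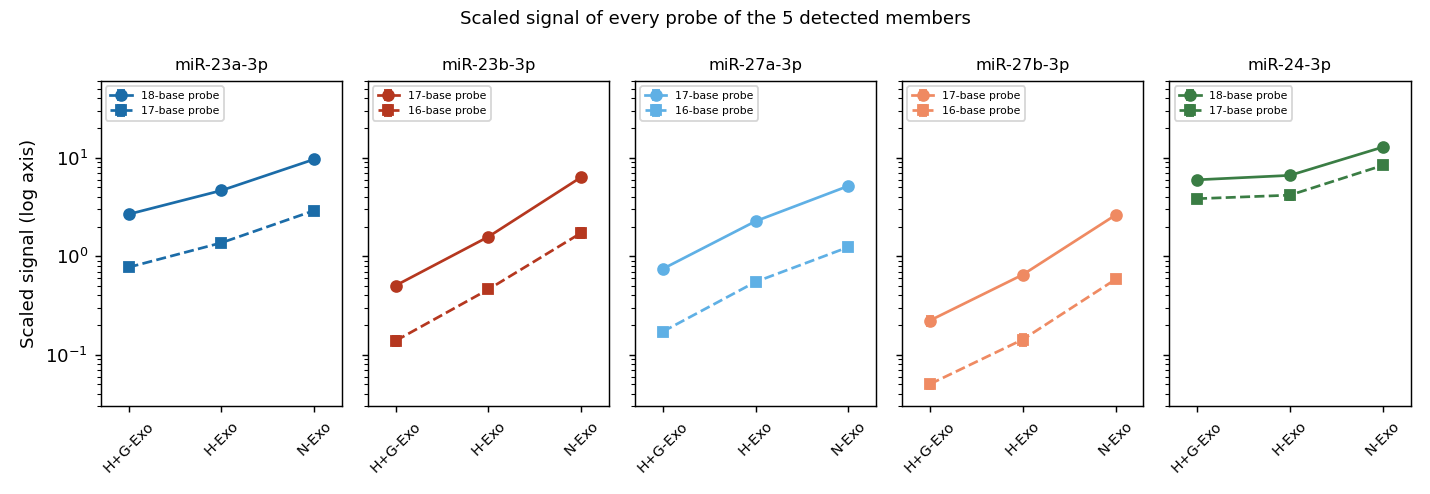
Scaled signal (log axis, intensity over the array's 75th percentile) of both probes of the 5 detected members in H+G-Exo, H-Exo and N-Exo, with points for the mean over spots and bars for the SD over spots, often smaller than the points. Within each panel the 2 probes ran in parallel, and miR-24-3p was nearly level between H+G-Exo (5.97) and H-Exo (6.62); levels of different probes are not compared.

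The scaling sets these levels, because the arrays differed in brightness. The 75th percentile was 469 in H+G-Exo, 235 in H-Exo and 417 in N-Exo, 675, 587 and 683 miRNAs were detected on them, and no spot was saturated. The median intensity of the labelling control dmr_285 was 1995 in H+G-Exo, 1356 in H-Exo and 2316 in N-Exo. That of dmr_31a, the second labelling control, was 1627 in H+G-Exo, 1530 in H-Exo and 1744 in N-Exo. That of the hybridization control dmr_6 was 2242 in H+G-Exo, 2100 in H-Exo and 2084 in N-Exo. Before scaling, miR-23a-3p averaged 1252 in H+G-Exo, 1094 in H-Exo and 4021 in N-Exo, and miR-24-3p averaged 2800 in H+G-Exo, 1556 in H-Exo and 5331 in N-Exo, so that without scaling the H+G-Exo value exceeded the H-Exo value for both. In the unscaled intensities miR-23b-3p (237 in H+G-Exo against 371 in H-Exo), miR-27a-3p (349 in H+G-Exo against 533 in H-Exo) and miR-27b-3p (104 in H+G-Exo against 153 in H-Exo) were lower in H+G-Exo. Fewer vesicles and less of a miRNA per vesicle cannot be told apart in these data.

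The hypoxia comparison, H-Exo against N-Exo, gave lower guide strands from both clusters. To be called risen or fallen, a miRNA had to be detected on both arrays and to change at least 2-fold, by more than 2 standard errors over spots. By that rule 4 of the 5 measured members fell and none rose, while of the 582 miRNAs with a value on both arrays 10.7% fell and 4.30% rose. The median log2 difference was -1.19 over the 5 measured members and 0.34 over all 582 miRNAs. The b-cluster pair had the lowest values, with log2 differences of -2.01 (SE over spots 0.019, 4.03-fold lower) for miR-23b-3p and -2.01 (SE 0.026) for miR-27b-3p. They stood seventh and sixth from the lowest of the 582.

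The a-cluster pair fell by about 1 log2 unit. The log2 difference was -1.05 (SE 0.023, 2.07-fold lower) for miR-23a-3p and -1.19 (SE 0.024, 2.28-fold lower) for miR-27a-3p, at ranks 59 and 46 from the lowest. For miR-24-3p it was -0.95 (SE 0.029, 1.93-fold lower), short of the 2-fold limit, at rank 70. Its 17-base probe gave -1.0 (2.0-fold) and met the limit, so that miR-24-3p lies on the border of the rule; it passed under 7 of the 15 alternative settings described in the processing. The call of miR-23a-3p was lost under quantile normalization (-0.80) and normexp with quantile (-0.90), and that of miR-27a-3p under quantile normalization (-0.99). Relative to the median of all miRNAs, a quantity that a constant scaling does not change, the differences were -1.39 for miR-23a-3p, -2.35 for miR-23b-3p, -1.53 for miR-27a-3p, -2.35 for miR-27b-3p and -1.29 for miR-24-3p.

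In the GW4869 comparison, H+G-Exo against H-Exo, 3 members were lower by the rule and miR-24-3p was nearly level at the main setting. By the rule 3 of the 5 measured members fell and none rose, while of the 567 miRNAs with a value on both arrays 26.1% fell and 6.17% rose. The median log2 difference was -1.55 over the 5 members and -0.42 over all 567 miRNAs. The 3 that fell were miR-23b-3p at -1.65 (SE 0.026, 3.13-fold lower), miR-27a-3p at -1.61 (SE 0.028, 3.05-fold lower) and miR-27b-3p at -1.55 (SE 0.049, 2.92-fold lower). This count depended on the scaling and was 0 of 5 without scaling, with the labelling controls, with the hybridization control and after normexp with quantile normalization. Over all miRNAs 7 of 567, 36 of 567, 16 of 566 and 32 of 567 fell under these settings, in that order. At the main setting 148 of 567 fell. A count of 0 of 5 thus lies near the share over all miRNAs under those settings.

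The remaining pair did not pass the rule. miR-23a-3p differed by -0.80 (SE 0.022, 1.74-fold lower) and miR-24-3p by -0.15 (SE 0.032, 1.11-fold lower). The value of miR-23a-3p turned positive under 2 of the 15 alternatives. That of miR-24-3p turned positive under 9 of the 15, up to 0.85 without scaling, so its direction depends on the setting. Relative to the median of all miRNAs, the differences were -0.38 for miR-23a-3p, -1.22 for miR-23b-3p, -1.19 for miR-27a-3p, -1.12 for miR-27b-3p and 0.27 for miR-24-3p. Measured this way miR-24-3p lay above the middle of the array and the miR-23b and miR-27 guides lay more than 1 log2 unit below it.

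The joint comparison, H+G-Exo against N-Exo, gave the widest spread among the members. All 5 measured members fell and none rose, while of the 604 miRNAs with a value on both arrays 26.2% fell and 18.4% rose. The median log2 difference was -2.80 over the 5 members and -0.05 over all 604 miRNAs. miR-23b-3p had -3.66 (SE 0.024, 12.6-fold lower) and miR-27b-3p -3.56 (SE 0.044, 11.8-fold lower), the third and the fifth from the lowest. miR-27a-3p had -2.80 (SE 0.022, 6.95-fold lower) at rank 17 and miR-23a-3p -1.85 (SE 0.018, 3.61-fold lower) at rank 79. miR-24-3p had -1.10 (SE 0.023, 2.14-fold lower) at rank 146, the smallest difference of the members, and missed the 2-fold limit under 8 of the 15 alternatives (nearest to 0 in the deposited table, -0.58). The hypoxia and the joint comparison share the N-Exo array, and the hypoxia and the GW4869 comparison share the H-Exo array. The GW4869 and the joint comparison share the H+G-Exo array. A member's joint log2 difference is the sum of its differences in the other comparisons, so the comparisons are not independent of each other.

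**Figure D2:**
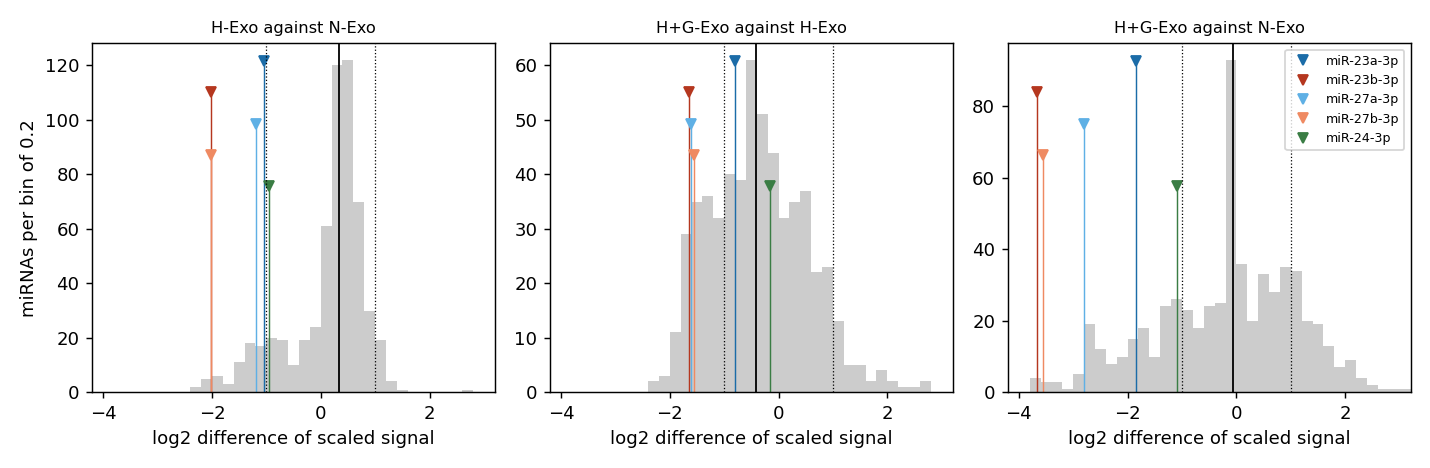
Histograms of the log2 difference of scaled signal over all miRNAs measured on both arrays (582, 567 and 604 miRNAs), with a solid line at their median, dotted lines at 2-fold and coloured markers for the 5 measured members. The b-cluster markers lie at -2.01 and -2.01 in the left panel and at -3.66 and -3.56 in the right panel, left of those of their a-cluster paralogues; the peak near 0 in the right panel includes miRNAs at the floor on both arrays.

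The comparison of the clusters asks whether each a-cluster member changed as its b-cluster paralogue did. The a-minus-b difference is the log2 difference of the a-cluster member minus that of its paralogue, so that a constant scaling of an array cancels. For the miR-23 pair in the hypoxia comparison it was 0.96 (SE over spots 0.030), from -1.05 for miR-23a-3p and -2.01 for miR-23b-3p. For the miR-27 pair it was 0.82 (SE 0.036), from -1.19 for miR-27a-3p and -2.01 for miR-27b-3p. In hypoxia the b-cluster guides were thus lower by a further 1.95-fold for miR-23 and 1.77-fold for miR-27 than their a-cluster paralogues.

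The miR-23 pair differed in the GW4869 comparison as well. The a-minus-b difference in this comparison was 0.84 (SE 0.034) for miR-23 and -0.06 (SE 0.056) for miR-27. The miR-27 value of these brightest probes lay within 2 standard errors over spots of 0. With the 16-base probe of miR-27a-3p it was -0.13 (SE 0.063) and -0.18 (SE 0.076) against the 17-base and 16-base probes of miR-27b-3p, both beyond 2 standard errors. In the joint comparison it was 1.81 (SE 0.030, 3.50-fold) for miR-23 and 0.76 (SE 0.049, 1.70-fold) for miR-27. Against normoxia both pairs ran in the same direction, and the miR-23 pair was the further apart.

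Each pairing of probes gave the same signs. Over the 4 pairings of an a-cluster with a b-cluster probe, the miR-23 difference ranged from 0.82 to 0.96 in the hypoxia comparison, from 0.82 to 0.93 in the GW4869 comparison and from 1.73 to 1.81 in the joint comparison. The miR-27 difference ranged from 0.82 to 0.85 in the hypoxia comparison, from -0.18 to -0.06 in the GW4869 comparison and from 0.67 to 0.76 in the joint comparison. With the 17-base probes printed above, equal in length, the miR-23 pair gave 0.93, 0.82 and 1.75 in these comparisons. The 2 probes of a member share their target and differ by 1 base in length, so they are not replicates of the condition. Their log2 differences lay within 0.10 of each other for all 5 members, against a median gap of 0.10 to 0.13 over all miRNAs with several detected probes and a 95th percentile of 0.35 to 0.82.

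**Figure D3:**
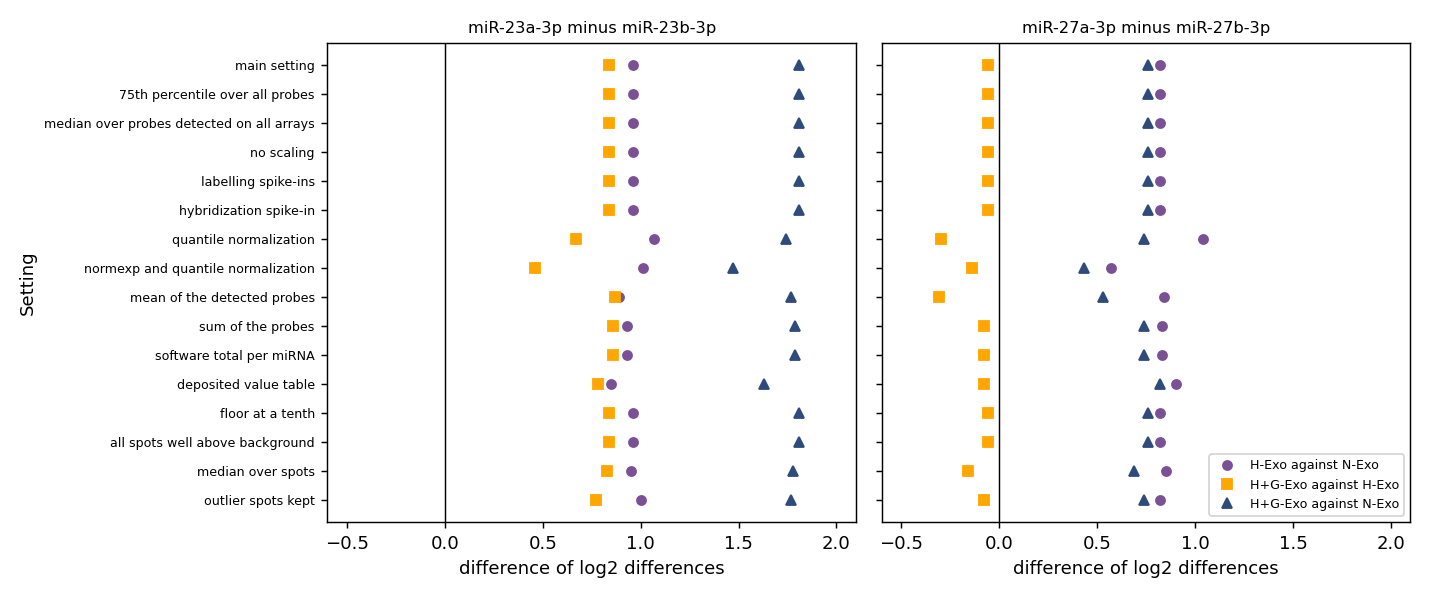
The a-minus-b difference (log2 difference of the a-cluster member minus that of its b-cluster paralogue) under the main setting and the 15 alternatives, for miR-23 on the left and miR-27 on the right, with a symbol for each comparison. All miR-23 values lie above 0, between 0.46 and 1.81, whereas the miR-27 values for H+G-Exo against H-Exo lie between -0.31 and -0.06.

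Other miRNAs that carry paired a and b names give a scale for these differences, in a comparison added after the values had been seen. Pairs were taken from names with the prefix miR and the same number and arm, so that let-7 names were left out. The array holds 87 such pairs, of which 18 had both members measured in the hypoxia comparison, 18 in the GW4869 comparison and 20 in the joint comparison. The median size of their a-minus-b difference was 0.28, 0.31 and 0.42 in these comparisons. In the hypoxia comparison 2 of the 18 pairs differed by as much as the miR-23 pair, and 2 by as much as the miR-27 pair. In the joint comparison 2 of the 20 pairs differed by as much as the miR-23 pair, and 6 by as much as the miR-27 pair. In the GW4869 comparison 3 of the 18 pairs reached the miR-23 value and 14 reached the miR-27 value. Both sets of counts describe these arrays only, and the pairs vary in how far their sequences differ.

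Within the clusters, at the main setting, the b-cluster members moved together and the a-cluster members did not always do so. miR-23b-3p minus miR-27b-3p was 0.00 (SE 0.032) in the hypoxia comparison, -0.10 (SE 0.055) in the GW4869 comparison and -0.10 (SE 0.050) in the joint comparison. miR-23a-3p minus miR-27a-3p was 0.14 (SE 0.034) in the hypoxia comparison, 0.81 (SE 0.036) in the GW4869 comparison and 0.95 (SE 0.028) in the joint comparison. The miRNAs of the a-cluster thus lay close to each other under hypoxia and apart with GW4869 added, where miR-27a-3p was the lower. Normexp with quantile normalization moved these gaps. There miR-23b-3p was at -2.89 and miR-27b-3p at -2.60 in the joint comparison. In the GW4869 comparison miR-23a-3p was then at -0.52 and miR-27a-3p at -0.98.

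Against N-Exo, miR-24-3p lay nearer to the a-cluster members than to the b-cluster members. In the hypoxia comparison its log2 difference exceeded that of miR-23a-3p by 0.10 (SE 0.037) and that of miR-27a-3p by 0.24 (SE 0.038). It exceeded those of miR-23b-3p and miR-27b-3p by 1.06 (SE 0.034 and 0.039). In the joint comparison the excess was 0.75 (SE 0.029) over miR-23a-3p, 1.70 (SE 0.032) over miR-27a-3p, 2.56 (SE 0.034) over miR-23b-3p and 2.46 (SE 0.050) over miR-27b-3p. In the GW4869 comparison it was 0.65 (SE 0.039) over miR-23a-3p, 1.46 (SE 0.042) over miR-27a-3p, 1.5 (SE 0.041) over miR-23b-3p and 1.40 (SE 0.058) over miR-27b-3p. There miR-23a-3p was the nearest to miR-24-3p, though apart from it, and miR-27a-3p lay as far off as the b-cluster members. The share of its signal from either hairpin printed above was not tested.

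Base composition of the probes moved with the changes across the array. The Spearman correlation across miRNAs between the GC content of the brightest probe and the log2 difference was 0.44 in the hypoxia comparison, 0.42 in the GW4869 comparison and 0.49 in the joint comparison, and these miRNAs share the same 3 arrays. The brightest probes held 50% GC for miR-23a-3p, 52.9% for miR-23b-3p, 58.8% for miR-27a-3p, 52.9% for miR-27b-3p and 50% for miR-24-3p. The 17-base miR-23 probes have equal GC content, 52.9%, and their a-minus-b differences were the 0.93, 0.82 and 1.75 given above. The miR-27 probes differ in GC content. The part of GC content in the members' differences was not tested.

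The other miRNAs of these loci were near background apart from miR-23a-5p. They are passenger strands of the cluster hairpins and the miR-3074 forms, which come from the opposite DNA strand of the miR-24 loci. Of 8 such miRNAs on the array, 1 was detected in H+G-Exo, 1 in H-Exo and 2 in N-Exo. miR-23a-5p, the passenger strand of the a-cluster's miR-23 hairpin, had a scaled signal of 0.34 ± 0.07 in H+G-Exo, 0.55 ± 0.203 in H-Exo and 0.617 ± 0.184 in N-Exo (SD over 7 spots). The ranges of 1 SD overlapped between H-Exo and each of the other arrays. Its log2 difference was -0.17 (SE 0.26) in the hypoxia comparison, -0.69 (SE 0.23) in the GW4869 comparison and -0.86 (SE 0.20) in the joint comparison, none past the rule. Its probe of 13 bases gave 0.43 (SE 0.14) in the hypoxia comparison and 0.31 (SE 0.13) in the joint comparison, so its probes disagreed in sign in both. In the GW4869 comparison that probe gave -0.12 (SE 0.095). miR-3074-2-3p was detected in N-Exo only, with unscaled intensities of 12.3 ± 2.77 in H+G-Exo, 17.1 ± 4.37 in H-Exo and 29.1 ± 6.94 in N-Exo (SD over 14 or 15 spots). Of the 5 miRNAs miR-23b-5p, miR-27a-5p, miR-24-1-5p, miR-3074-5p and miR-3074-1-3p no spot was well above background on any array, and the b-cluster's miR-27b-5p had at most 25% such spots.

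Other miRNAs often described as regulated by hypoxia were set beside the members. Of 12 on the array, 9 were measured in every comparison. In the hypoxia comparison 6 of the 9 fell and none rose, with a median log2 difference of -1.09. In the GW4869 comparison 6 of the 9 fell, with a median of -1.15, and in the joint comparison 7 of the 9 fell, with a median of -2.65. Over all miRNAs 10.7%, 26.1% and 26.2% fell in the 3 comparisons, and the medians were 0.34, -0.42 and -0.05. miR-210-3p, known as a target of the hypoxia-inducible factor, had a scaled signal of 6.17 in H+G-Exo, 13.2 in H-Exo and 7.51 in N-Exo. Its log2 difference was 0.82 (SE 0.021) in the hypoxia comparison, within the 2-fold limit and opposite in sign to those of the 5 measured members, and -0.01 (1.01-fold) without scaling.

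Markers of the labelled cell type moved with the members. All 8 miRNAs of a mesenchymal list, among them miR-21a-5p, miR-199a-3p and miR-143-3p, were detected in H+G-Exo and N-Exo and 7 in H-Exo. The summed scaled signal of those detected was 50.4 in H+G-Exo, 127 in H-Exo and 293 in N-Exo. Most of it came from miR-21a-5p (29.7 in H+G-Exo, 81.0 in H-Exo and 190 in N-Exo) and miR-125b-5p (15.2, 34.9 and 69.0). The H-Exo sum leaves out miR-145a-5p, which was not detected there. By the rule 6 of 7 measured fell in the hypoxia comparison, 5 of 7 in the GW4869 comparison and 8 of 8 in the joint comparison, while 10.7%, 26.1% and 26.2% of all measured miRNAs fell in these. Markers of endothelium (2 miRNAs), epithelium (5) and liver (1) were detected on no array. Of 5 blood markers miR-451a and miR-223-3p were detected, with a list sum of 0.11 in H+G-Exo, 0.292 in H-Exo and 0.231 in N-Exo, and of 4 muscle and heart markers at most 2 were detected. The counts of these lists were taken at the scaling used and not under the alternatives. The part that the cells' mesenchymal content had in the members' differences was not tested.

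The miRNAs whose pattern was most like that of a member were found among the 562 detected on all 3 arrays, leaving out the members themselves, by the Euclidean distance between the pairs of log2 differences from N-Exo, which share that array. The nearest non-members to miR-23b-3p were miR-26a-5p at a distance of 0.05, miR-99a-5p, miR-143-3p, miR-199b-5p and miR-322-5p, the last at 0.30. Of these miR-26a-5p had log2 differences of -1.97 in the hypoxia comparison and -3.62 in the joint comparison. The nearest non-members to miR-27b-3p were miR-26a-5p at 0.07, miR-143-3p, miR-199b-5p, miR-99a-5p and miR-199a-3p, and 4 of the 5 were those nearest to miR-23b-3p.

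The a-cluster members had other neighbours. Nearest to miR-23a-3p were miR-106b-5p at 0.14, miR-301a-3p, let-7g-5p, miR-331-3p and miR-100-5p at 0.22. Nearest to miR-27a-3p were let-7f-5p at 0.05, miR-350-3p, miR-21a-5p, let-7a-5p and miR-10a-5p at 0.14. Nearest to miR-24-3p were miR-542-5p at 0.05, miR-132-3p, miR-25-3p, miR-676-3p and miR-669n at 0.27. No non-member was among the 5 nearest of both an a-cluster and a b-cluster member. The distances use the same log2 differences as the a-minus-b comparison. The lack of shared neighbours therefore follows from the gaps given there and is not a separate result.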

How the data were processed

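RNA of exosomes from 3 groups was hybridized to 3 one-colour Agilent mouse miRNA arrays, 1 per group, on 1 slide scanned together, per the file headers. The authors used Agilent Feature Extraction 10.7.1.1 for quantification, per the file headers and the submitters' processing notes, and the deposited intensity per spot is background-subtracted and not scaled between arrays. The labels' protocols name a kit that amplifies cRNA, so how the miRNA was labelled is uncertain. The deposited value table was read as log2 values, as its Pearson correlation across miRNAs with the log2 sum of the probes' intensities was 0.958 to 0.987; its column medians were -3.30 in H+G-Exo, -3.00 in H-Exo and -3.32 in N-Exo, and its normalization is unknown. It served as an alternative. No column of another sample was present (0).

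Each array held 58594 spots, 2164 of them controls, and 1881 miRNAs on 4415 probes. Of the miRNA spots, 1466 in H+G-Exo, 1369 in H-Exo and 1568 in N-Exo carried an outlier mark and were left out. Processed intensities were averaged over a probe's spots, scaled by the 75th percentile of the probes detected on all arrays, floored at 0.0653 (the highest of the 3 arrays' lowest detected scaled signals) and taken to log2; single-probe differences used no floor. The brightest probe had the highest mean log2 over the arrays. The number of arrays, 3, limits the precision.

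All comparisons ran over the whole array and only the members' results are given. The text names the 6 members, the other miRNAs of the loci, miR-210-3p and the lists, and for each member the 5 nearest miRNAs that are not members; miRNAs named within lists are examples. The members and lists were chosen with earlier results of these data known. Computation used Python 3.11.15, numpy 2.4.6, pandas 2.3.3, scipy 1.17.1 and matplotlib 3.10.9, with R 4.3.3 and limma 3.58.1 for the normexp alternative (offset 50). Scaling, probe choice, filters and spot rules were varied in 15 alternatives. Sequences and positions came from RefSeq (GRCm38.p6); the array annotation uses mm9.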

Additional observations from a re-analysis of the deposited data

How the results depend on the processing

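No paired analysis was possible because each group has 1 array. Across the 15 alternatives the miR-23 a-minus-b difference stayed positive, at 0.85 to 1.07 in the hypoxia comparison, 0.46 to 0.87 in the GW4869 comparison and 1.47 to 1.81 in the joint comparison. The values outside 1 SD over spots were 0.67 (quantile normalization) and 0.46 (normexp and quantile) in the GW4869 comparison, 1.47 (normexp and quantile) and 1.63 (deposited table) in the joint comparison, and 0.85 (deposited table) in the hypoxia comparison. For miR-27 they were 1.04 (quantile) and 0.57 (normexp and quantile) in the hypoxia comparison, -0.30 (quantile) and -0.31 (mean of the detected probes) in the GW4869 comparison, and 0.43 (normexp and quantile) and 0.53 (mean of the detected probes) in the joint comparison. The mean of the detected probes used the floor of 0.0653, above the 16-base miR-27b-3p probe in H+G-Exo (0.0505). The cause of the other shifts was not tested. Members past the rule numbered 2 under quantile normalization in the hypoxia comparison, where 66 of 582 miRNAs fell over the whole array. They numbered 0 in the GW4869 comparison without scaling, with the labelling controls, with the hybridization control and with normexp and quantile. The counts over all miRNAs under these settings are given with that comparison. In the joint comparison members past the rule numbered 4 or 5 throughout. Over all miRNAs 158 of 604 fell there at the main setting and 85 of 607 under normexp and quantile. With GW4869 miR-23a-3p turned to 0.20 without scaling and 0.10 with the hybridization control, and miR-24-3p to 0.18 (75th percentile over all probes), 0.26 (median), 0.85 (no scaling), 0.52 (labelling controls), 0.75 (hybridization control), 0.16 (quantile), 0.27 (normexp and quantile), 0.18 (software total per miRNA) and 0.29 (deposited table). Among all called miRNAs, the share that rose was 28.7% in the hypoxia comparison, 19.1% in the GW4869 comparison and 41.3% in the joint comparison. It moved to 0.741%, 96.4% and 50.2% without scaling, where the medians of all miRNAs were -0.49, 0.57 and 0.07. With the labelling controls the shares were 2.0%, 78.9% and 59.0%. With 1 array per group the spread between preparations is unknown, and the errors given cover spots only.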

Other observations

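The software's total per miRNA for miR-23a-5p was 489 in H+G-Exo, 429 in H-Exo and 1510 in N-Exo, while the totals of its own probes summed to 35.3 in H+G-Exo, 25.6 in H-Exo and 47.6 in N-Exo. The total of miR-23a-3p was 455 in H+G-Exo, 403 in H-Exo and 1463 in N-Exo, so that the deposited total of the passenger strand holds close to the sum of both strands. The values of miR-23a-5p in the results come from its own probes.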
